A study of Mus musculus with 6 samples.

Results

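Replication-dependent histone genes encode the bulk histones that package newly made DNA. They comprise the core histones H2A, H2B, H3 and H4, which form the nucleosome, and the linker histone H1, which binds the DNA between nucleosomes. Most lie in clusters, lack introns, are transcribed in S phase at histone locus bodies under NPAT, and end in a stem-loop bound by SLBP in place of a poly(A) tail. Their RNA is made and destroyed in step with DNA replication, so its level in a cell population is widely used as a sign of how many cells are in S phase. The 68 genes whose symbols begin with Hist1h, Hist2h, Hist3h or Hist4h were taken from the 22482 distinct symbols of the protein-coding table. By symbol they comprise 6 genes of H1, 19 of H2A, 18 of H2B, 12 of H3 and 13 of H4, and 55 of the 68 carry the name of the large Hist1 cluster.

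RNA had been measured in vascular smooth muscle cells (VSMCs), which contract the wall of arteries, grown from the aorta of C57BL/6 mice in medium with 10% serum. The labels give 3 libraries, titled ADV, to cells that carried an adenovirus for Myocd knockdown, and 3 libraries, titled Ctrl, to cells that carried a negative control virus, both for 48 h. Since the design text names the Ctrl group wildtype, it is not certain that these cells received virus. Ribosomal RNA was removed without selection for poly(A) tails, so histone RNA without a tail could be read. The labels do not state whether each library had its own culture or animal, so the spread behind each p-value is that of 6 libraries and could be technical.

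Myocd, the gene named in the label, ran against it, at 132, 130.1 and 146 FPKM in the ADV libraries and at 0.0355, 0 and 0.125 FPKM in the Ctrl libraries. FPKM is a fragment number divided by the length of the transcript and the size of the library. The groups are therefore called by their labels, ADV and Ctrl, and no direction of Myocd is read from the name. Between 7528170 and 9793781 fragments per library were recovered over protein-coding genes. Of the smooth muscle markers, Acta2 was at 340.2 ± 7.16 FPKM in ADV and 67.2 ± 4.16 FPKM in Ctrl (SD, n = 3 each), while Myh11, a defining gene of contractile smooth muscle, was at 0.0604 FPKM and 0.0132 FPKM on average. The summed level of 8 smooth muscle markers was 519 to 547 FPKM in ADV and 229 to 254 FPKM in Ctrl. Most of the difference between these sums lay in Acta2. Of the 6 markers that could be tested 3 rose, against 1.83% of all genes tested. Endothelial markers summed to at most 0.732 FPKM in ADV and 0.736 FPKM in Ctrl, with Emcn at 0. The sums of fibroblast (68.1 to 80.3 and 67.0 to 77.8 FPKM), macrophage (20.6 to 24.5 and 22.4 to 26.4 FPKM) and mesothelial markers (76.4 to 88.6 and 73.4 to 78.5 FPKM) overlapped between ADV and Ctrl, and the part of other cells in the results was not tested.

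The DNA just before 4 of the genes that the results turn on is shown first, so that their promoters can be set beside their values. The stretches are from RefSeq (build GRCm38.p6), each ends at the base before the annotated start, and all read 5′ to 3′ along the gene's own strand. Capitals mark the CCAAT box (ATTGG when it lies on the other strand), the TATA box written as TATAAA, and the letters GGTCCG. The first 4 belong to genes that were lower in ADV, 1 of H1, 2 of H4 and 1 of H3. The 120 bases before Hist1h1a (chr13:23763548-23763667, plus strand), Hist1h4d (chr13:23581448-23581567, plus strand), Hist1h4k (chr13:21750554-21750673, minus strand) and Hist1h3c (chr13:23745522-23745641, minus strand) read as follows.
Hist1h1a: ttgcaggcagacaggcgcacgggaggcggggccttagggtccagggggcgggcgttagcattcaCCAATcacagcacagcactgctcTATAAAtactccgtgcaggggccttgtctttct
Hist1h4d: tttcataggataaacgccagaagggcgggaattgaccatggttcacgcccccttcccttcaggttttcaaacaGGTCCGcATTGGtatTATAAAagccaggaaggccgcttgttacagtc
Hist1h4k: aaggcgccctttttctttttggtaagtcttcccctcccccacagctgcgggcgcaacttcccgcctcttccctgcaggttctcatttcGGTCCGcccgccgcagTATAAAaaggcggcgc
Hist1h3c: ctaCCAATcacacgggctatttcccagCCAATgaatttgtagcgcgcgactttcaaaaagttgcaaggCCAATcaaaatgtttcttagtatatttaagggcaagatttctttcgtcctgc

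A window of 250 bases before the start was given by RefSeq for 62 of the 68 genes, and both strands were searched. CCAAT, the letters that the factor NF-Y binds, was in 51 of the 62 windows (82.3%), against 37.5% of the 27025 genes with a window. Each gene counted once, as a match if any of its windows matched, so shares of all windows are shares of these genes. It was in every H1, H2A and H2B window and in 3 of 12 H4 windows. TATAAA, a form of the TATA box, was in 46.8% of the histone windows and 14.3% of all windows. Windows of H2A and H2B genes that stand head to head overlap, so the same CCAAT or TATAAA can count for both. ATTTGCAT, the octamer of Oct-1 known from H2B promoters, was in 7 of 18 H2A windows and 7 of 16 H2B windows and in none of H1, H3 or H4, against 1.81% of all windows. These counts include both members of the head-to-head pairs Hist1h2ae and Hist1h2bg, Hist1h2ah and Hist1h2bk, and Hist1h2aa and Hist1h2ba, whose windows overlap. AAACACA, known from H1 promoters, was in 5 of 6 H1 windows and in 7.2% of all windows. GGTCCG, searched after the H4 windows had been seen, was in 9 of 12 H4 windows and 7.69% of all windows. The 9 include those of Hist1h4m and Hist1h4n, which share a run of 285 bases. The CArG box, the site of the serum response factor that myocardin works with, matched 4 of the 62 windows (6.45%), those of Hist2h2ac, Hist1h2an, Hist1h2bp and Hist1h2bb, against 1.62% of all windows. Hist1h2an and Hist1h2bp stand head to head with overlapping windows, so the same site can count for both. None of these 4 genes passed the test below, and a match is a description of the letters only.

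The replication-dependent histone genes were lower in ADV than in Ctrl as a group of small changes. Of the 68 genes, 67 reached 0.5 FPKM in at least 3 of the 6 libraries and were tested. Of these, 11 fell, none rose and 56 did not pass at an adjusted p of 0.05 (limma on log2(FPKM + 0.1), adjusted over all 11612 genes tested). The 11 are 16.4% of the tested histone genes, while 1.61% of all genes tested fell and 1.83% rose. At an unadjusted p of 0.05, limma had 29 lower (all genes 12.2%) and 2 higher (all genes 10.2%). Fits to recovered fragments called 17 of 65 lower by edgeR (all genes 4.5%) and 15 of 56 by DESeq2 (all genes 3.38%). Neither called any higher, against 5.45% and 4.15% of all genes. The log2 fold change was below 0 for 56 of the 67 (83.6%), against 52.2% of all genes tested, and its median was -0.20 against -0.01. The ADV and Ctrl libraries did not overlap, with ADV the lower, in 24 of the 67 (35.8%), against 15.6% of all genes tested. In 1 gene, Hist2h2be, ADV was the higher without overlap, against 13.3% of all genes.

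**Figure D1:**
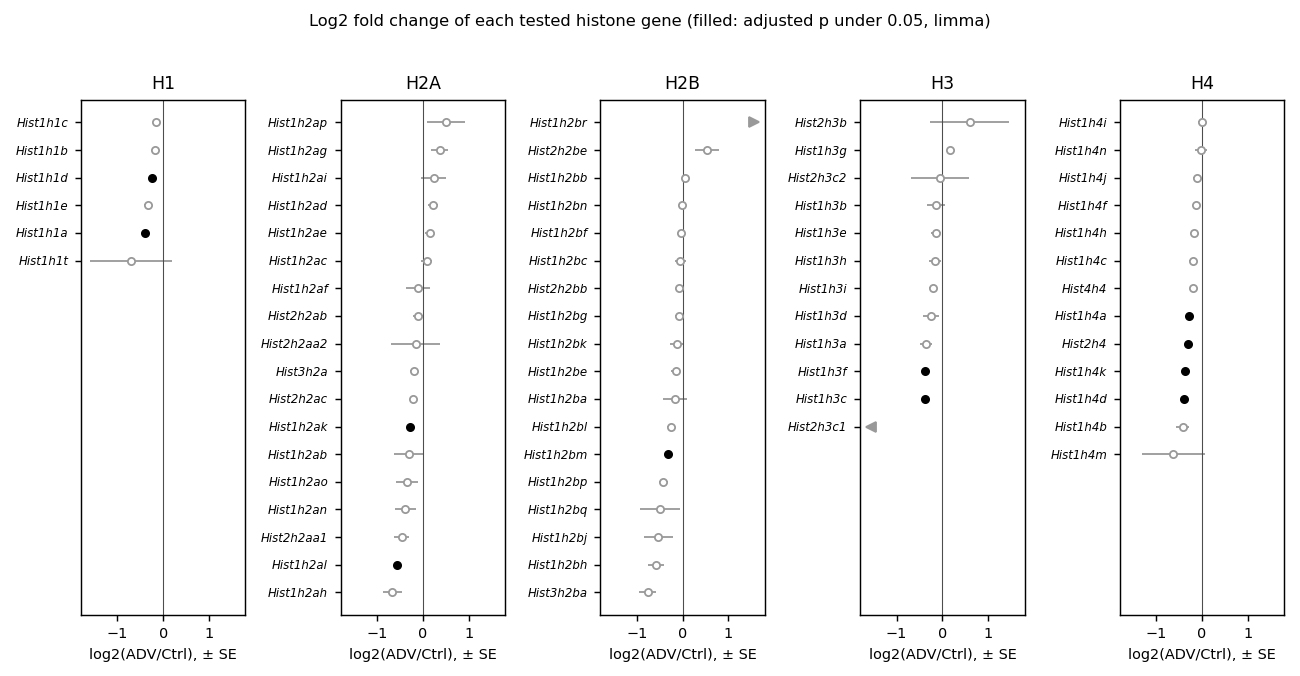
Log2 fold change of ADV over Ctrl for each of the 67 tested histone genes, with the standard error of the limma fit, in 1 panel for each histone type. Filled points passed at an adjusted p of 0.05, and all 11 lie left of 0; arrows mark Hist1h2br (2.89) and Hist2h3c1 (-2.39), which lie outside the axis.

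Summed over all 68 genes, histone RNA came to 8911, 9162 and 8917 FPKM in the ADV libraries and 10622, 10442 and 10507 FPKM in the Ctrl libraries. The sums did not overlap, and their means were 8997 ± 143 FPKM in ADV and 10524 ± 91.0 FPKM in Ctrl (SD, n = 3 each), a ratio of 0.855. In bulk RNA, fewer cells that make histone RNA and less histone RNA per cell cannot be told apart. As fragments scaled to library size (CPM), the sums were 3603, 3691 and 3884 in ADV and 4318, 4182 and 4621 in Ctrl, a ratio of 0.852, again without overlap. A CPM sum does not depend on how fragments were divided among near-identical copies of these genes, while an FPKM sum can, since copies were scaled by different lengths. Without the 3 most abundant genes the FPKM ratio was 0.862. The 11 genes that passed summed to 0.767 times their Ctrl level and the 56 that did not pass to 0.89 times, the 11 having been chosen by this contrast.

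**Figure D2:**
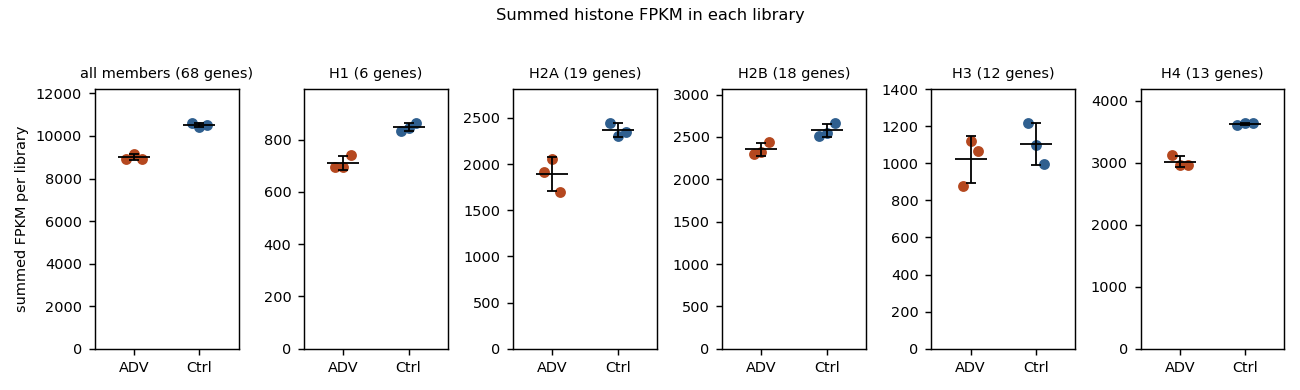
Summed FPKM of the histone genes in each library, for all 68 genes and for each type, with 1 point per library and the mean ± SD (n = 3). The ADV libraries lie below the Ctrl libraries in the sum of all genes and in H1, H2A, H2B and H4, and the groups overlap in H3.

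Of the 6 tested genes of linker histones, which compact the fibre between nucleosomes, 2 fell (all genes 1.61%). Their median log2 fold change was -0.29, and their summed FPKM in ADV was 0.839 times that in Ctrl. Hist1h1a (chr13:23763668-23764414, mm10) stood at 114.7, 115.8 and 119.95 FPKM in ADV and at 152, 146 and 162 FPKM in Ctrl. All 3 ADV libraries lay below all 3 Ctrl libraries, and the fitted log2 difference was -0.39 (SE 0.05, limma adjusted p = 0.0122). Hist1h1d stood at 56.0, 55.7 and 54.4 FPKM in ADV and at 65.6, 62.5 and 68.1 FPKM in Ctrl, also without overlap (log2 -0.24, SE 0.05, limma adjusted p = 0.0431).

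Hist1h1b, the linker histone of highest mean level here, had 239, 235 and 245 FPKM in ADV and 275, 279 and 261 FPKM in Ctrl. Its groups did not overlap and its log2 fold change of -0.18 did not pass by limma (adjusted p = 0.0564). The gene passed by edgeR (adjusted p = 0.0374) and did not by DESeq2 (adjusted p = 0.054). Hist1h1e, at 142, 143 and 174 FPKM in ADV and 182, 193 and 202 FPKM in Ctrl, did not pass by limma (log2 -0.34, adjusted p = 0.0767). It passed by edgeR (adjusted p = 0.0401) and DESeq2 (adjusted p = 0.0113). Hist1h1c did not pass, with a log2 fold change of -0.16. The testis linker histone Hist1h1t was just inside the expression limit, at 0.400, 0.676 and 0 FPKM in ADV and 0.123, 0.780 and 0.746 FPKM in Ctrl, from at most 6 fragments per library. Its counts carry no direction at this depth.

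Of 18 tested H2A genes 2 fell (all genes 1.61%), with a median log2 fold change of -0.18 over the type. The summed FPKM of H2A in ADV was 0.8 times that in Ctrl. H2A pairs with H2B to form the dimers at the outer faces of the nucleosome. Hist1h2ak (chr13:21753395-21753907) had 264, 262 and 267 FPKM in ADV and 332, 328 and 302 FPKM in Ctrl. The groups did not overlap, at a log2 difference of -0.28 (SE 0.04, limma adjusted p = 0.0253).

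Hist1h2al had 248, 235 and 232 FPKM in ADV and 326, 350.4 and 387 FPKM in Ctrl, without overlap, and fell by 0.57 on the log2 scale (SE 0.07, limma adjusted p = 0.0103). Its entry lies at chr13:51202633-51203066, away from the Hist1 cluster, and RefSeq names the gene H2af-ps2, a pseudogene symbol. A long noncoding RNA (lncRNA) entry, uc029sbd.1, holds the same 434 bases, so fragments from this locus can be divided between both entries. The lncRNA entry had 144, 143 and 114 FPKM in ADV and 121, 141 and 89.97 FPKM in Ctrl (log2 0.20, limma adjusted p = 0.664). Added together, the entries came to 392, 378 and 346 FPKM in ADV and 447, 492 and 477 FPKM in Ctrl, a ratio of 0.788 without overlap (exact permutation test, two-sided p = 0.1, the smallest that 3 against 3 libraries allow).

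The most abundant H2A gene, Hist2h2aa1, had 585, 433 and 424 FPKM in ADV and 785, 654 and 550.4 FPKM in Ctrl. The highest ADV library lay above the lowest Ctrl library. Its log2 fold change of -0.47 (SE 0.16) did not pass by limma (adjusted p = 0.149) and passed by edgeR (adjusted p = 0.0252). By DESeq2 it did not pass (adjusted p = 0.115). The other H2A genes that did not pass ranged in log2 fold change from -0.67 in Hist1h2ah to 0.51 in Hist1h2ap, and 6 of the 18 were above 0. Hist1h2aa, a testis-type H2A gene, was at 0 in all 6 libraries and was not tested.

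Of 18 tested H2B genes 1 fell (all genes 1.61%), with a median log2 fold change of -0.14. In 5 of the 18 all ADV libraries lay below all Ctrl libraries, against 15.6% of all genes tested. EdgeR called 0 of 17 H2B genes (median log2 fold change -0.10), against 4.5% of all genes lower, and DESeq2 called 1 of 15 lower, against 3.38%. The summed FPKM of H2B in ADV was 0.913 times that in Ctrl without overlap, and overlapped as CPM of fragments (738, 727 and 865 in ADV, 797, 784 and 917 in Ctrl). Hist1h2bm (chr13:21721442-21722478) had 110.0, 113 and 116 FPKM in ADV and 136, 138 and 149.6 FPKM in Ctrl. Its groups did not overlap (log2 -0.32, SE 0.05, limma adjusted p = 0.0212). It was the only one of the 11 that edgeR did not call (adjusted p = 0.0975), and DESeq2 did not call it either (adjusted p = 0.218). Hist2h2bb, the histone gene of highest mean FPKM in the table, had 660.3, 716 and 795 FPKM in ADV and 727, 749 and 801 FPKM in Ctrl. These overlapped, and the log2 fold change of -0.07 did not pass (limma adjusted p = 0.594).

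Hist2h2be, known in mouse olfactory neurons, where it is made outside replication, had 1.55, 1.23 and 1.31 FPKM in ADV and 0.979, 1.14 and 0.654 FPKM in Ctrl. It was the single histone gene with every ADV library above every Ctrl library. Its log2 fold change of 0.54 (SE 0.27) did not pass (limma adjusted p = 0.282).

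Of 12 tested H3 genes 2 fell (all genes 1.61%), with a median log2 fold change of -0.19. H3 and H4 together form the tetramer at the centre of the nucleosome. Hist1h3c (chr13:23744973-23745602) had 93.7, 98.6 and 97.3 FPKM in ADV and 129, 126 and 120.4 FPKM in Ctrl (log2 -0.38, SE 0.04, limma adjusted p = 0.0106). Hist1h3f had 83.3, 86.7 and 83.6 FPKM in ADV and 106, 111 and 111 FPKM in Ctrl (log2 -0.37, SE 0.04, limma adjusted p = 0.00956). Neither gene overlapped between the groups.

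The most abundant H3 gene, Hist1h3i, had 155, 169 and 143 FPKM in ADV and 186, 189.9 and 167 FPKM in Ctrl, and its log2 fold change of -0.21 did not pass (limma adjusted p = 0.152). Summed FPKM of H3 overlapped, at 1021 ± 126 FPKM in ADV and 1104 ± 112 FPKM in Ctrl (SD, n = 3 each). Hist2h3b alone ran from 34.0 to 262 FPKM within ADV and from 35.4 to 188 FPKM within Ctrl. As CPM of fragments the H3 sums did not overlap, at 451, 544 and 543 in ADV and 631, 573 and 644 in Ctrl.

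H4 had the most genes that passed, 4 of 13 (all genes 1.61%), and all 13 had a log2 fold change below 0 (median -0.20). H1, with 2 of 6, also had every log2 fold change below 0, at a median of -0.29. Hist1h4i and Hist1h4n were close to 0 (-0.01 and -0.02), and with edgeR 1 of the 13 was above 0. Hist1h4d (chr13:23581598-23581990), of the highest mean FPKM in its type, had 539.8, 529 and 535 FPKM in ADV and 696, 683 and 751 FPKM in Ctrl. The ADV libraries lay close together and far below the Ctrl libraries (log2 -0.41, SE 0.04, limma adjusted p = 0.00892).

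Hist1h4k (chr13:21750194-21750505) had 522, 516 and 502 FPKM in ADV and 640.2, 689 and 682 FPKM in Ctrl, again without overlap (log2 -0.38, SE 0.04, limma adjusted p = 0.0089). Hist1h4a had 256, 223 and 231 FPKM in ADV and 300.1, 288 and 282 FPKM in Ctrl (log2 -0.30, SE 0.06, limma adjusted p = 0.042). Hist2h4 had 54.5, 53.7 and 57.9 FPKM in ADV and 65.5, 70.5 and 70.0 FPKM in Ctrl (log2 -0.31, SE 0.05, limma adjusted p = 0.0285). None of these 3 H4 genes overlapped between the groups. Summed H4 FPKM in ADV was 0.832 times that in Ctrl.

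**Figure D3:**
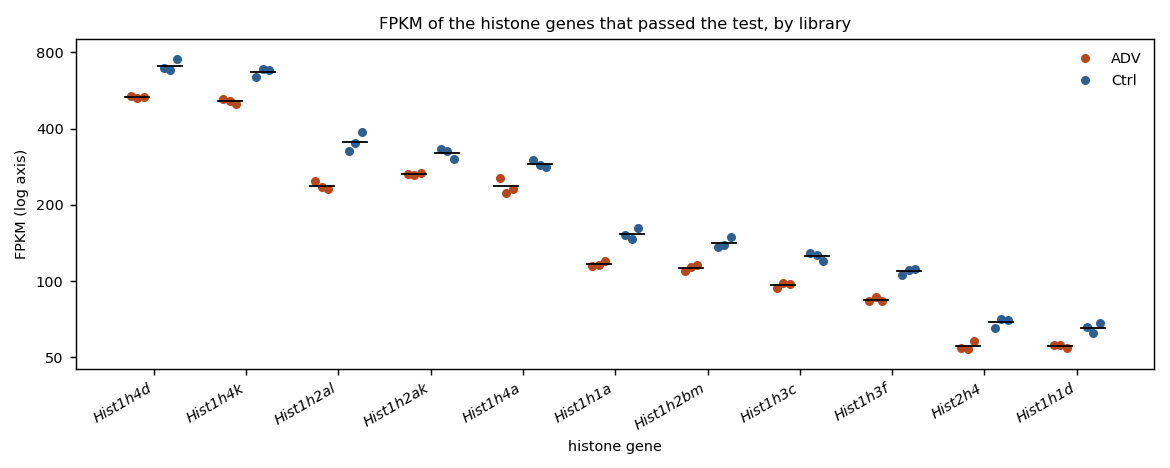
FPKM on a log axis in each library for the 11 histone genes that passed, with 1 point per library and a line at the group mean, ADV left of Ctrl. In each gene the 3 ADV libraries lie below the 3 Ctrl libraries, from Hist1h4d at 529 to 539.8 FPKM in ADV down to Hist1h1d at 54.4 to 56.0 FPKM in ADV.

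By cluster name, 10 of 54 tested Hist1 genes fell and 1 of 10 Hist2 genes (Hist2h4), against 1.61% of all genes tested. None of the 2 Hist3 genes fell, nor did the single Hist4 gene, Hist4h4. EdgeR called Hist4h4 lower (adjusted p = 0.026) and DESeq2 did not (adjusted p = 0.0955). Median log2 fold changes were -0.19 in Hist1 and -0.13 in Hist2. Summed FPKM of ADV over Ctrl was 0.849 in Hist1, 0.882 in Hist2 and 0.834 in Hist3, each without overlap of the libraries, and Hist2 overlapped as CPM of fragments. Leaving out both replicate 3 libraries, 7 of 67 histone genes passed by limma, all lower, against 0.24% of all genes lower and 0.412% higher, and 5 of them were among the 11. By edgeR, 24 of 65 fell and none rose without both replicate 3 libraries, against 6.06% of all genes lower and 6.94% higher. Limma called 4 histone genes without ADV replicate 1 (0.237% of all genes fell), 4 without ADV replicate 2 (0.263%) and 10 without ADV replicate 3 (0.749%). It called 4 without Ctrl replicate 1 (0.144%), 2 without Ctrl replicate 2 (0.11%) and 8 without Ctrl replicate 3 (0.519%), all lower. Of the 11 genes, 10 were called by edgeR, and Hist1h4d kept its call under all 23 alternative settings. Hist1h1d kept it in 12 of the 23, Hist1h2bm in 13, Hist1h4a in 15, Hist2h4 in 16 and Hist1h2ak in 17, and the other 5 in 19 to 21.

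Many H2A and H2B genes stand head to head and share the DNA between them. Starts of an H2A and an H2B gene lay within 300 bases in 12 pairs, and both genes were tested in 11. Hist1h2ak and Hist1h2bn are such a pair, in which the H2A gene fell and the H2B gene had 275, 272 and 250.5 FPKM in ADV and 248, 277 and 276 FPKM in Ctrl (log2 -0.00, limma adjusted p = 0.975). The ratio of H2A to H2B was 0.96, 0.96 and 1.07 in ADV and 1.34, 1.18 and 1.09 in Ctrl, without overlap (exact permutation test, two-sided p = 0.1, the smallest possible, and 0.367 adjusted over the 11 pairs). The whole interval between their starts (GRCm38.p6, chr13:21753913-21754075, written along the plus strand toward Hist1h2bn) is shown because 1 stretch of DNA serves both genes, and its capitals mark CCAAT on either strand.
Hist1h2bn: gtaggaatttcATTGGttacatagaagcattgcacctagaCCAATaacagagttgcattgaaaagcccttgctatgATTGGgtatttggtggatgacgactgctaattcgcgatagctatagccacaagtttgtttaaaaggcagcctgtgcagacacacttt

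Several histone genes that varied widely within groups were near-copies of each other, although Hist2h3b and Hist1h1t, which are in none of the pairs below, also varied widely. In 5 pairs of the same type, the RefSeq windows (250 bases before to 50 after the start) shared an unbroken run of at least 200 bases. The median SD of log2 FPKM within groups was 0.79 in these 10 genes and 0.12 in the 57 other tested histone genes. The median was 0.09 over the 6899 tested genes that averaged 10 FPKM or more. Hist1h2bq (chr13:21806412-21810199, minus strand) and Hist1h2br (chr13:21833743-21837530, plus strand) have identical windows, and the 120 bases before each start are printed to show it, with CCAAT in capitals.
Hist1h2bq: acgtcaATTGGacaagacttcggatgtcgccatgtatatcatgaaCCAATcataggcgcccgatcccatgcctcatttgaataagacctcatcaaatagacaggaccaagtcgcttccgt
Hist1h2br: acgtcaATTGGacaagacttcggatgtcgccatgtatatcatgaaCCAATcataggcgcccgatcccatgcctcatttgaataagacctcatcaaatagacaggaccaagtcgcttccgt

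Hist1h2br had the largest positive log2 fold change of all histone genes, 2.89 (SE 1.10, limma adjusted p = 0.181). It stood at 44.0, 12.2 and 25.1 FPKM in ADV and 18.9, 2.32 and 0.626 FPKM in Ctrl, which overlapped. Of the summed FPKM of the pair, Hist1h2br held 86.7%, 59.3% and 53.5% in ADV and 57.0%, 17.1% and 2.82% in Ctrl. The pair together had 50.8, 20.6 and 46.9 FPKM in ADV and 33.1, 13.6 and 22.2 FPKM in Ctrl, which overlapped.

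Hist2h3c1, in a pair with Hist2h3c2, had the largest negative log2 fold change, -2.39 (SE 0.65), which did not pass by limma (adjusted p = 0.0917) and passed by edgeR (adjusted p = 0.0154). It had 4.43, 3.24 and 4.39 FPKM in ADV and 18.8, 8.02 and 63.6 FPKM in Ctrl. The groups did not overlap, and Ctrl replicate 3 stood far above the other Ctrl libraries. With its copy added, the sums were 7.41, 6.15 and 12.3 FPKM in ADV and 21.3, 10.7 and 75.1 FPKM in Ctrl. These overlapped as FPKM and not as CPM of fragments. Genes of such pairs are uncertain 1 by 1, since the division of fragments between copies cannot be checked here. None of the 10 is among the 11 that passed. The pairs were sought only in the DNA around the start, and the rest of the transcribed sequences was not compared. Of the 11, Hist1h2al, Hist1h3f and Hist2h4 had no RefSeq window and could not enter a pair. Absence from the pairs therefore does not show that the 11 are free of such division.

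**Figure D4:**
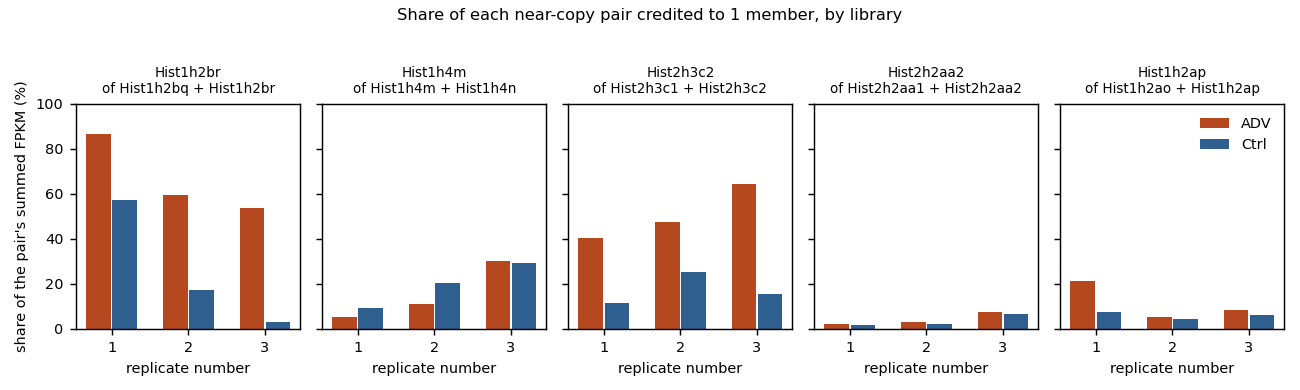
Share of the summed FPKM of each of 5 near-copy pairs that was credited to Hist1h2br, Hist1h4m, Hist2h3c2, Hist2h2aa2 and Hist1h2ap, by replicate number, ADV left of Ctrl. Hist1h4m holds 30.1% and 29.1% in the replicate 3 libraries of ADV and Ctrl and at most 20.1% in the others, and Hist2h2aa2 holds 7.14% and 6.40% against at most 2.71%.

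In several of the copies, replicate 3 of ADV and replicate 3 of Ctrl were both far from the other libraries. With group in the model, limma called 1 gene of 11612 (0.00861%) between replicate 3 and the other replicates, and that gene was the histone gene Hist2h2aa2. It had 11.4, 12.1 and 32.6 FPKM in ADV and 12.9, 12.8 and 37.7 FPKM in Ctrl (log2 1.504 for replicate 3, limma adjusted p = 0.0028). Hist1h4m was also highest in replicate 3 of both groups, at 26.3, 44.4 and 140.4 FPKM in ADV and 41.4, 89.0 and 165 FPKM in Ctrl, with a log2 difference of 1.74 that did not pass (limma adjusted p = 0.178). Its copy Hist1h4n had 469, 368 and 326 FPKM in ADV and 411, 354 and 401 FPKM in Ctrl. At an unadjusted p of 0.05, limma had 12 of 67 higher and 11 lower in replicate 3, against 13.7% of all genes in either direction. EdgeR called 10 of 65 histone genes for replicate 3, against 2.2% of all genes. Of these, 8 were higher in replicate 3 (all genes 1.06%) and 2 lower (all genes 1.13%), and 5 of the 8 belong to copy pairs. DESeq2 gave an adjusted p to 12 of the histone genes and called 3, all higher, against 7.38% of all genes in either direction, 2.74% higher and 4.64% lower.

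The scaling of short genes also differed in the replicate 3 libraries. From FPKM and fragments, the length the authors' program used could be worked back for each gene. Over the 44 tested histone genes with a length under 500 bases, its median was 299.1, 302.5 and 328.3 bases in ADV and 300.8, 299.5 and 331.6 bases in Ctrl. Replicate 3 had the longest value in both groups, and replicates 1 and 2 lay close together. For Hist1h4d it was 207.6, 210.8 and 232.9 bases in ADV and 208.7, 207.5 and 235.4 bases in Ctrl, so that, for libraries of equal size, 1 FPKM of a short histone gene would stand for more fragments in replicate 3. Its part in the replicate 3 calls was not tested. Over all 67 tested genes the length ran from 124 to 4388 bases, above 1000 bases in 12 of them, so levels of different histone genes are comparable only as far as these lengths fit the RNA. Hist2h4, an H4 gene of 384 bases in RefSeq, was scaled by 1683 bases.

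The lncRNA table pairs 19 transcripts with these genes, by overlap, antisense position or a shared start region. Of 14 that could be tested, 1 fell and none rose (limma, adjusted over 4955 transcripts, of which 2.04% fell and 4.26% passed in either direction). At an unadjusted p of 0.05, 1 was lower and 1 higher. The 1 that fell, ENSMUST00000090779, overlaps exons of Hist2h2aa1, Hist2h2aa2 and Hist2h3c1 on the same strand. It had vanishingly small FPKM in all 3 ADV libraries, which round to 0 fragments, and 0.763, 0.613 and 1.14 FPKM in Ctrl (limma adjusted p = 0.0127), from 24.9, 19.0 and 35.9 estimated fragments. The call was lost without ADV replicate 2. These fragment numbers are fractional and the entry overlaps these genes on the same strand, so it and Hist2h3c1 are not separate measurements. ENSMUST00000176760, antisense to 2 of the genes, had 2.22, 2.05 and 1.87 FPKM in ADV and 1.48, 0.962 and 1.30 FPKM in Ctrl, without overlap, and did not pass (limma adjusted p = 0.225). The next by p were uc007prv.2, which overlaps Hist1h2bq and Hist1h2br, and uc007prp.1, antisense to Hist1h2bq (limma adjusted p = 0.325 and 0.326).

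Of 45 genes of S phase and DNA replication, 11 fell, none rose and 34 did not pass, while 1.61% of all genes tested fell and 1.83% rose. The median log2 fold change of the list was -0.23, with 6 genes above 0. At an unadjusted p of 0.05, 28 were lower and none higher, against 12.2% and 10.2% of all genes. Pold1, the catalytic subunit of DNA polymerase delta, had 17.1, 17.7 and 15.6 FPKM in ADV and 29.5, 25.5 and 26.6 FPKM in Ctrl (log2 -0.69, SE 0.08, limma adjusted p = 0.0103). Mcm5, of the replicative helicase, averaged 25.3 ± 0.650 FPKM in ADV and 33.2 ± 0.527 FPKM in Ctrl (SD, n = 3 each; log2 -0.39). The clamp loader gene Rfc4 (log2 -0.43) and the licensing gene Cdt1 (log2 -0.39) also fell. Pcna, the sliding clamp, did not pass, at 118, 118 and 132 FPKM in ADV and 125, 113 and 131 FPKM in Ctrl. Its log2 fold change by limma was -0.01, and above 0 when libraries were centred on their medians. On fragments it was -0.123 by edgeR (adjusted p = 0.0878) and -0.125 by DESeq2 (adjusted p = 0.214), and did not pass in either.

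Of 25 genes of G2/M and mitosis, 6 fell and none rose, against 1.61% and 1.83% of all genes, with a median log2 fold change of -0.13. Without adjustment, 10 were lower and none higher at a p of 0.05 (limma), against 12.2% and 10.2% of all genes. Mki67, which encodes the proliferation marker Ki-67, averaged 67.2 ± 1.65 FPKM in ADV and 80.9 ± 3.76 FPKM in Ctrl (SD, n = 3 each; log2 -0.27, SE 0.05, limma adjusted p = 0.036). The mitotic kinesin Kif20a (log2 -0.34), the transcription factor Foxm1 (-0.38), the checkpoint kinase Bub1 (-0.32) and Birc5, which encodes survivin (-0.20), fell too. Without both replicate 3 libraries none of the S phase or G2/M genes passed by limma, while 23 of 45 and 13 of 25 were lower at an unadjusted p of 0.05, against 11.3% of all genes in that fit. EdgeR called 18 and 10 lower with all libraries, against 4.5% of all genes.

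Of 30 genes of histone transcription and 3-prime end processing, none passed by limma (median log2 fold change -0.11), and 24 had a log2 fold change below 0. At an unadjusted p of 0.05, 5 were lower and 1 higher, against 12.2% and 10.2% of all genes. EdgeR called 1 higher and 0 lower, against 5.45% and 4.5% of all genes. Slbp, which binds the stem-loop, had 33.1, 32.5 and 33.5 FPKM in ADV and 33.8, 38.0 and 37.2 FPKM in Ctrl. These did not overlap, and the log2 fold change of -0.13 did not pass (limma adjusted p = 0.234). Npat had 10.91, 12.04 and 11.01 FPKM in ADV and 10.47, 11.21 and 10.78 FPKM in Ctrl, which overlapped (log2 0.06, limma adjusted p = 0.654). Snrpf, which encodes a protein of the Sm ring, was the gene that edgeR called higher (log2 0.30 by limma, adjusted p = 0.062; edgeR adjusted p = 0.021). Snrpd3 (log2 -0.21), Snrpb (-0.17) and Cpsf3 (-0.23), an RNA-cutting subunit of the cleavage complex, did not pass.

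**Figure D5:**
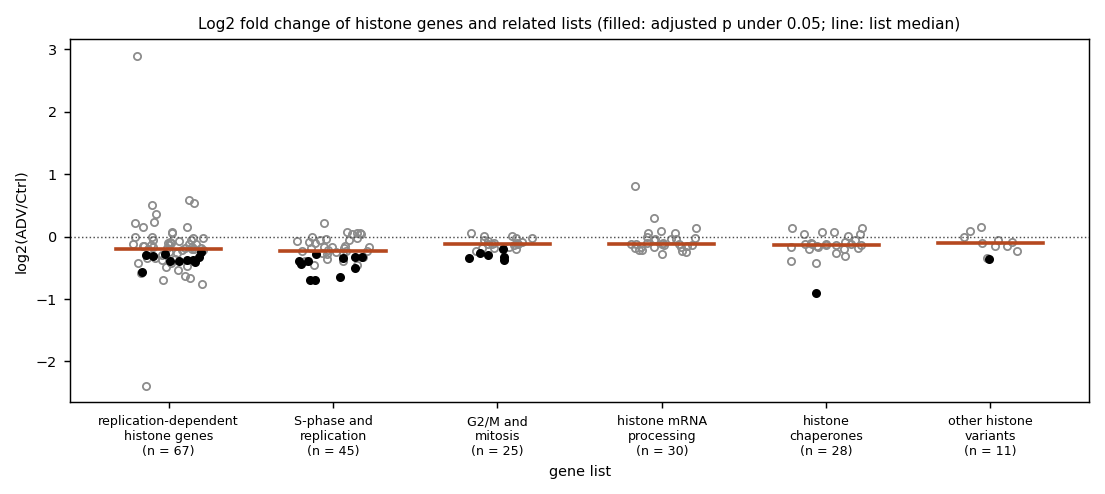
Log2 fold change of ADV over Ctrl for the tested replication-dependent histone genes and for 5 lists of related genes, with 1 point per gene, filled where the adjusted p was under 0.05 (limma). The thick line is the median of each list (-0.20 for the histone genes, -0.23 for S phase, -0.13 for G2/M, -0.11 for RNA processing, -0.13 for chaperones and -0.11 for other variants), and the dotted line is the median of all genes tested (-0.01).

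The 28 tested genes of histone chaperones and deposition had a median log2 fold change of -0.13. Without adjustment, 12 were lower and none higher at a p of 0.05 (limma), against 12.2% and 10.2% of all genes. After adjustment 1 fell and none rose by limma, against 1.61% and 1.83% of all genes. The 1 was Mms22l, which with Tonsl acts at stalled replication forks. It had 8.20, 9.48 and 6.78 FPKM in ADV and 18.6, 13.3 and 14.3 FPKM in Ctrl (log2 -0.91, SE 0.16, limma adjusted p = 0.0346). EdgeR called 7 lower and 1 higher, against 4.5% and 5.45% of all genes. Hira, which deposits the variant H3.3 outside replication (log2 -0.38, limma adjusted p = 0.09; edgeR adjusted p = 0.0301), Chaf1b, a subunit of the replication-coupled chaperone CAF-1 (log2 -0.43), and Nap1l1, an H2A and H2B chaperone (log2 -0.12), did not pass by limma.

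Histone variants made outside S phase were tested in 11 genes, with a median log2 fold change of -0.11. Without adjustment, 3 were lower and none higher at a p of 0.05 (limma), against 12.2% and 10.2% of all genes. After adjustment 1 fell and none rose by limma, against 1.61% and 1.83% of all genes. The 1 was H2afx, whose protein is phosphorylated at DNA breaks, at 69.9, 66.7 and 69.5 FPKM in ADV and 87.3, 85.5 and 92.8 FPKM in Ctrl (log2 -0.36, SE 0.05, limma adjusted p = 0.0141). Unlike the others in the list, H2afx is known from human cells to give a replication-type stem-loop RNA as well as a polyadenylated one. H2afz had 280.4, 269 and 196 FPKM in ADV and 324, 328 and 288 FPKM in Ctrl, without overlap, and did not pass (log2 -0.35, limma adjusted p = 0.181). H3f3b, the H3.3 gene of highest level here, averaged 681 ± 17.3 FPKM in ADV and 727 ± 19.5 FPKM in Ctrl (SD, n = 3 each; log2 -0.09, limma adjusted p = 0.205), and the centromeric variant gene Cenpa had a log2 fold change of -0.15 that did not pass. A test of the difference between these lists and the replication-dependent genes was not run.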

How the data were processed

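The members and lists were chosen with earlier results of these data known. Per the submitters' processing notes, the tools were Cuffdiff 2.2.1, Cufflinks, HISAT2 2.0.4 and cutadapt, with builds mm10 and mm9 named without roles; the table's start of Hist1h1a equals its GRCm38.p6 start, so coordinates are given as mm10. The kit is stranded per the labels' protocols; strand use in counting is not given in the sources used here. FPKM and an estimated count per library are what the authors deposited. Each estimated count column that the authors deposited was divided by its library's constant, and 89.4% to 90.4% of recovered fragments lay within 0.01 of a whole number. Rows of 79 repeated symbols were summed.

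The main test was limma 3.58.1 with a trend (R 4.3.3) on log2(FPKM + 0.1), with at least 0.5 FPKM (lncRNAs 0.1) in at least 3 libraries, or 2 where libraries were left out. The adjustment was Benjamini and Hochberg's over each table, two-sided, at 0.05. The added 0.1 makes fold changes of low genes too small. EdgeR 4.0.16 (quasi-likelihood, TMM) and DESeq2 1.42.0 were run on fragments rounded to whole numbers. The tests were checked on simulated data with larger changes than those of the histone genes that passed, so the check does not cover changes of their size. Fragment numbers cover counting error only. Genes with values in each library were every gene that passed, the gene of highest mean in each type, the largest changes and those at the expression limit; for other lists, up to 4 of smallest p plus Slbp, Npat, H2afz, H3f3b, H2afx, Pcna and Mki67. Hist1h1c, Hist1h1e, Hist1h2ah, Hist1h2ap, Hist1h2bn, Hist1h2bq, Hist1h4i, Hist1h4m, Hist1h4n, Hist2h2aa2, Hist2h2be, Hist2h3b, Hist2h3c2 and Hist4h4 were named after their values were seen. RefSeq genes were matched by NCBI gene ID for all 68. Alternatives were other pseudocounts, filters, scalings, variance models, libraries left out, and the replicate number as a term. Protein sequences were not used here.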

Additional observations from a re-analysis of the deposited data

How the results depend on the processing

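The number of replication-dependent histone genes called between ADV and Ctrl, 11 by limma, stayed within 1.5 times under other pseudocounts, filters and scalings, robust estimation, library weights and DESeq2 (10 to 15). It was 4 without the trend, 17 with edgeR, 21 with edgeR and no filter on low counts, 17 with edgeR and DESeq2 size factors, 7 without both replicate 3 libraries and 24 by edgeR without them, the last chosen after seeing the data. Leaving out each library in turn gave 2 to 10 calls. Where a fit's share over all genes is not given in this text, its count does not show whether all genes moved alike. Apart from 1 gene higher in edgeR without a filter and 1 with the block, all calls in these fits were lower; the cause of the differences was not tested. After each gene's group mean was taken off, same-numbered libraries correlated at 0.04, -0.00 and 0.10 over all tested genes. The numbers were therefore not taken as pairs, although over the histone genes these correlations were 0.07, 0.33 and 0.14. Differently numbered libraries ran from -0.09 to 0.06 over all tested genes and from -0.36 to 0.11 over the histone genes. With the replicate block limma called 14 lower, against 100 of all 11612 genes, and edgeR called 26. For replicate 3 against the others, limma's 1 call became 10 with edgeR and 3 with DESeq2. The paired lncRNA call was 0 under the block and 0 to 2 on leaving out each library.

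The S phase list (11 calls) had 18 with edgeR, 0 without both replicate 3 libraries and 1 to 7 on leaving out each library. The G2/M list (6) had 10, 0 and 0 to 1 in the same settings and 3 under the block. Histone RNA processing (0) had 1 with edgeR and 1 under the block. Chaperones (1) had 8 with edgeR, 0 under the block, 0 without both replicate 3 libraries and 0 on leaving out any library. Other variants (1) had 0 without both replicate 3 libraries and 0 to 1 on leaving out each library. Over all genes, edgeR called 4.5% lower and 5.45% higher, and limma without both replicate 3 libraries 0.24% and 0.412%. On leaving out each library, limma called 0.11% to 0.749% of all genes lower. The log2 fold change of Hist1h1t turned to 0.49 without both replicate 3 libraries and to 0.18 without ADV replicate 3, in a range of -1.35 to 0.18 on leaving out each library. That of Pcna turned to 0.0049 with median-centred libraries and ranged from -0.065 to 0.039 on leaving out each library (above 0 for 4 of them). Depth limits Hist1h1t, with at most 6 fragments per library. With 3 libraries a group, exact tests of a single value cannot go below 0.1.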
